A study of Mus musculus with 18 samples.

Results

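The 9 genes described here make up the core of the goblet cell program of the mouse colon: *Atoh1* and *Spdef*, transcription factors of the secretory lineage; *Muc2*, the gel-forming mucin; *Agr2*, which acts in mucin folding; and the secreted mucus proteins *Fcgbp*, *Clca1*, *Zg16*, *Tff3* and *Retnlb*. They were taken by symbol from a bulk RNA-Seq count table of 47729 genes, and all 9 were present and were among the 16937 genes with enough reads to be tested. Total RNA of colon (the study names the distal colon for its recovery mice) had been sequenced from WT mice and from *Cldn2*KO mice, which lack claudin-2, a tight junction protein that forms a paracellular channel for cations and water. Each genotype was studied as controls, as mice labelled DSS-recovery (mucosal repair after colitis caused by dextran sulfate sodium, here called recovery), and as mice with colitis-associated cancer after 1 dose of azoxymethane (10 mg/kg) and 3 cycles of 2.5% DSS (AOM/DSS), with 3 libraries in each of the 6 groups. All mice were on a C57BL/6 background, and the knockouts were compared with WT littermates. The libraries are named by group and replicate, no label says that they came from separate animals, and p-values measure the spread between these libraries.

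Goblet cells fill the surface of the colon with mucus, a gel whose framework is the MUC2 polymer. *Atoh1* commits crypt progenitors to the secretory lineage, *Spdef* acts later in the maturation of goblet cells, and the mucin is folded in the endoplasmic reticulum, decorated with O-linked sugars and stored in granules together with smaller proteins. In the distal colon this layer keeps bacteria away from the epithelium, and both injury and repair are known to change the number and the content of goblet cells. In bulk tissue, fewer goblet cells and less RNA per goblet cell cannot be told apart.

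The libraries held 17643058 to 27390344 counted reads, of which the 9 genes took 0.423% to 2.06%. *Cldn2* stood at 44.5 to 504 CPM (counts scaled to the TMM-adjusted size of each library) in WT libraries and at 0.0555 to 0.557 CPM in *Cldn2*KO libraries. One feature of the libraries touches every comparison with recovery. *Hoxb13*, a homeobox gene of the posterior body that marks distal colon, was nearly absent from the 6 recovery libraries (at most 0.502 CPM) and from WT control replicate 2 (0.327 CPM), while the 11 other libraries had 198 to 570.1 CPM. Recovery and the absence of this posterior mark therefore cannot be told apart in *Cldn2*KO mice, and in WT mice only WT control replicate 2 separates them. The study names the distal colon as the source of RNA from its recovery mice, although this mark was nearly absent from their libraries. From which stretch WT control replicate 2 was taken, and whether it carries its proper label, is not given in the sources used here. Whether position along the colon or labelling accounts for the missing mark was not tested, and either would change what the differences between recovery and control mean. *Xist*, a sex-linked transcript, exceeded 100 CPM in recovery replicates 2 and 3 of both genotypes and in *Cldn2*KO AOM/DSS replicates 2 and 3, and was at most 1.16 CPM elsewhere. Recovery against control in both genotypes, AOM/DSS against control in *Cldn2*KO mice, and *Cldn2*KO against WT in AOM/DSS were therefore also uneven in *Xist*.

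*Spdef*, *Muc2* and *Agr2* were the members that edgeR called in WT recovery against WT controls. All were several-fold higher in WT recovery, and *Spdef* and *Muc2* also in *Cldn2*KO recovery. The sequences just before their starts are given below beside that of *Fcgbp*, a mucus protein gene that was not called in that comparison, so that the regions can be compared. RefSeq promoter entries (GRCm38.p6) were found for 5 of the 9 genes, the fifth being *Atoh1*. Each run covers the 250 bases before the start, 5′ to 3′ on the strand of the gene, shortened where the annotation already places transcribed bases. Capitals mark CAGCTG, an E-box of the kind bound by basic helix-loop-helix factors such as ATOH1, which reads the same on both strands.

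*Muc2*, chr7:141690090-141690339, plus strand: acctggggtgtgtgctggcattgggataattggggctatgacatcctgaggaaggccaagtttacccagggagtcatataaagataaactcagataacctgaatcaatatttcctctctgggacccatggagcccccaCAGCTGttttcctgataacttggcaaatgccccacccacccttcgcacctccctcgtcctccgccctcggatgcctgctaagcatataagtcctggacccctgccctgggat
*Agr2*, chr12:35992675-35992906, plus strand: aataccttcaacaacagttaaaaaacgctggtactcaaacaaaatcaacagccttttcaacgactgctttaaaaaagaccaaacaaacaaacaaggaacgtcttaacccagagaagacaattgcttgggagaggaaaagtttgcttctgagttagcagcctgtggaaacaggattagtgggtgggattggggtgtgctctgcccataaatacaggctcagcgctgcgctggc
*Spdef*, chr17:27728956-27729201, minus strand: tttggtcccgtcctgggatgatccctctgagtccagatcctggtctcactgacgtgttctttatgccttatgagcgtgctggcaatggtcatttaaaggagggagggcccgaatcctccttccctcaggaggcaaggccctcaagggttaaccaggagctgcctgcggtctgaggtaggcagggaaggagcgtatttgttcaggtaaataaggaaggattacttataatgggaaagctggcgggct
*Fcgbp*, chr7:28070986-28071235, plus strand: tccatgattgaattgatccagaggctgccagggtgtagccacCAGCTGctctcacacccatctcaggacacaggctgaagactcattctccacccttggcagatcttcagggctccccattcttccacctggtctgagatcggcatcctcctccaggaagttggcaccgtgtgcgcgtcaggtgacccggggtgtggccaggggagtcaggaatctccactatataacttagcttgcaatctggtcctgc

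One CAGCTG lay 112 bases before the start of *Muc2* and another 208 bases before that of *Fcgbp*, and the windows of *Agr2*, *Spdef* and *Atoh1* held none. The same letters occurred in 13% of 32851 promoter windows of 250 bases. CCGGAA, a core of the ETS family to which SPDEF belongs, and CCGGAT, the variant that SPDEF prefers, were searched on both strands and were absent from all 5 windows (12% and 4.94% of all windows held them). The genes called in WT recovery thus did not share these letters in this window.

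The fate genes come first. *Atoh1* (ENSMUSG00000073043, chromosome 6, 64729125 to 64731245, plus strand, GRCm38), the basic helix-loop-helix factor that opens the secretory lineage, was one of the least abundant members. Its level was 27, 24.4 and 36.8 CPM in WT controls and 34.9, 30.9 and 27.1 CPM in *Cldn2*KO controls. In recovery it was 45.5, 68.6 and 47.1 CPM in WT and 53, 72.1 and 57.9 CPM in *Cldn2*KO mice, and in AOM/DSS it was 53.5, 37.5 and 16.6 CPM in WT and 32.6, 52.3 and 52.9 CPM in *Cldn2*KO mice. Every recovery library lay above every control library of its genotype, while the AOM/DSS libraries overlapped the controls. In *Cldn2*KO mice *Atoh1* rose 1.97-fold from control to recovery (log2 fold change 0.98, SE 0.324, adjusted p = 0.0453 by edgeR), a call that was lost when any 1 of the 6 libraries was left out (edgeR adjusted p between 0.0614 and 0.145). The WT difference was of like size and was not called (log2 fold change 0.87, SE 0.324, adjusted p = 0.0656 by edgeR), and the difference between genotypes in this change was 0.11 on the log2 scale, smaller than its SE of 0.455.

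*Spdef* (ENSMUSG00000024215, chromosome 17, 27714352 to 27728951, minus strand), the ETS factor of goblet cell maturation, showed the clearest separation of any member. WT controls had 26.7, 22.9 and 28.9 CPM and *Cldn2*KO controls 26.3, 22.7 and 28.7 CPM. WT recovery libraries had 100.04, 195 and 99.4 CPM, and those of *Cldn2*KO mice 101, 153 and 152 CPM. AOM/DSS libraries had 26.8, 34.9 and 27.8 CPM in WT and 45.1, 34 and 38 CPM in *Cldn2*KO mice. The 6 recovery libraries thus stood apart from all 12 others, and the controls of both genotypes lay within the same narrow range. *Spdef* rose 5.01-fold in WT recovery (log2 fold change 2.33, SE 0.25, adjusted p = 0.000138 by edgeR) and 5.23-fold in *Cldn2*KO recovery (2.39, SE 0.251, adjusted p = 8.6e-05 by edgeR), and both calls held under all 16 alternatives. WT control replicate 2, the control without the posterior mark, had 22.9 CPM, the lowest of the WT controls. In *Cldn2*KO AOM/DSS the 3 libraries lay above the *Cldn2*KO controls (log2 difference 0.59, SE 0.24), which was not called (edgeR adjusted p = 0.262).

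**Figure D1:**
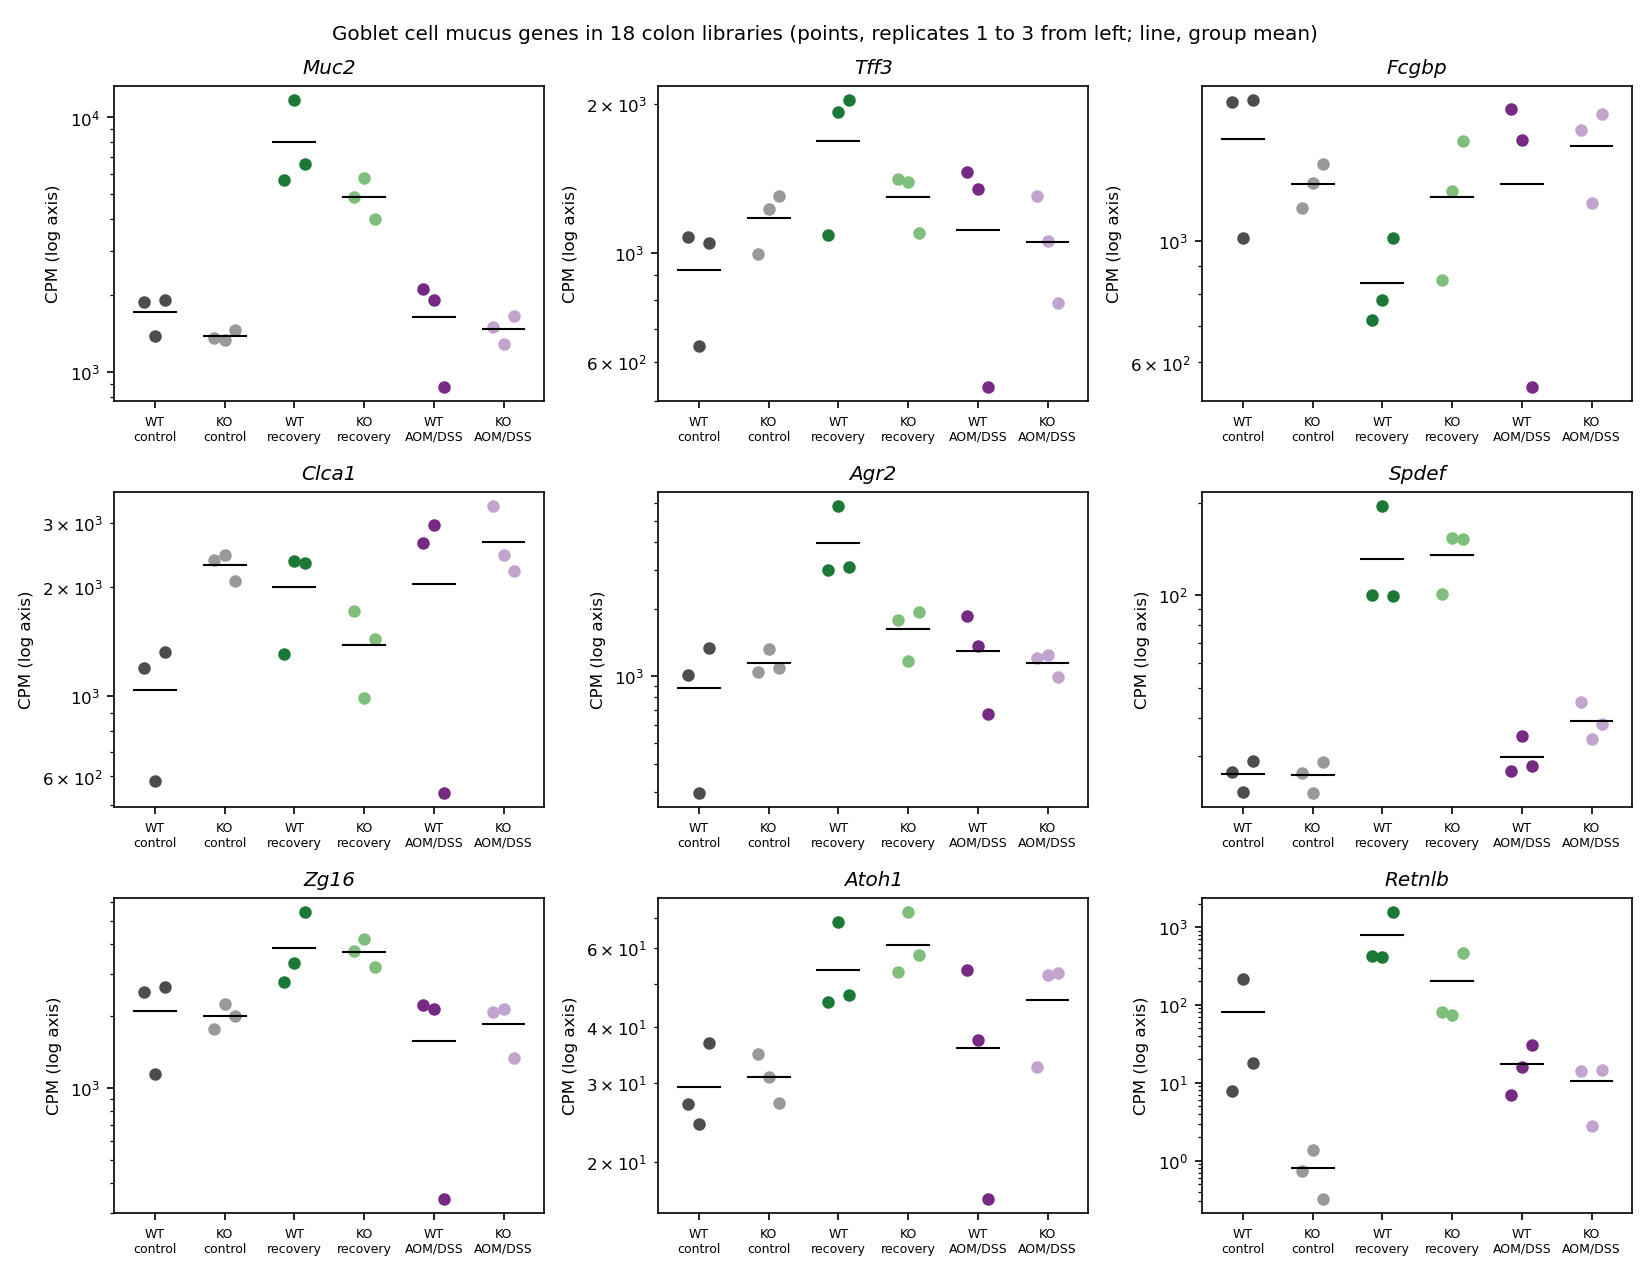
Levels (CPM, log axis) of the 9 genes in each of the 18 libraries, by genotype and treatment (KO, *Cldn2*KO). Points are replicates 1 to 3 from left to right and lines are group means. *Spdef* in recovery, at 99.4 to 195 CPM, lies above all other libraries, and WT AOM/DSS replicate 3 is the lowest of its group for 7 of the 9 genes.

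*Muc2* (ENSMUSG00000025515, chromosome 7, 141690340 to 141754693, plus strand) encodes the mucin that forms the colonic gel. Controls had 1890.1, 1384 and 1915 CPM in WT and 1365, 1340.0 and 1467 CPM in *Cldn2*KO mice. Recovery libraries had 5694, 11676 and 6556 CPM in WT and 4879.8, 5799.5 and 4003 CPM in *Cldn2*KO mice, and AOM/DSS libraries had 2120.0, 1924 and 875 CPM in WT and 1500.4, 1285 and 1658 CPM in *Cldn2*KO mice. Recovery again lay apart from all other libraries, and WT recovery replicate 2 was by far the highest. *Muc2* rose 4.61-fold in WT recovery (log2 fold change 2.21, SE 0.322, adjusted p = 0.000768 by edgeR) and 3.52-fold in *Cldn2*KO recovery (1.82, SE 0.318, adjusted p = 0.00149 by edgeR). The WT call held under all 16 alternatives and the *Cldn2*KO call under 15 of 16, the exception being a term for the posterior mark, with which the log2 fold change was 2.27 and the adjusted p 0.0869 by edgeR. Between genotypes in recovery, *Cldn2*KO libraries averaged 4894 ± 898 CPM and WT libraries 7975 ± 3234 CPM (SD, n = 3), with overlapping ranges and no call (log2 difference -0.70, SE 0.31, adjusted p = 0.22 by edgeR).

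*Agr2* (ENSMUSG00000020581, chromosome 12, 35992907 to 36004087, plus strand) encodes a protein disulfide isomerase of the endoplasmic reticulum that goblet cells need to make MUC2. It was present at 1009, 296 and 1331 CPM in WT controls and at 1044, 1320.1 and 1079 CPM in *Cldn2*KO controls. After recovery WT libraries had 3004, 5815 and 3084 CPM, and *Cldn2*KO libraries 1788, 1169 and 1936 CPM. With AOM/DSS the values were 1855, 1358 and 673 CPM in WT and 1199, 1245 and 985 CPM in *Cldn2*KO mice. Only WT recovery stood apart from every other group. *Agr2* rose 4.52-fold in WT recovery (log2 fold change 2.18, SE 0.463, adjusted p = 0.00506 by edgeR). Without WT control replicate 2, whose level was the lowest of all 18 libraries, the log2 fold change was 1.74 (edgeR adjusted p = 0.00451), and with a term for the posterior mark, which sets WT recovery against that library, it was 3.74 (edgeR adjusted p = 0.00333). The call held under 15 of 16 alternatives, with log2 fold changes of 1.51 to 3.74, and was lost when only the groups compared were fitted (adjusted p = 0.0546). In *Cldn2*KO mice the recovery and control libraries overlapped (0.51, SE 0.445, adjusted p = 0.471 by edgeR). Over 16 alternatives this *Cldn2*KO difference ran from 0.36 to 2.49 and was never called, and its adjusted p was lowest with the term for the posterior mark. *Cldn2*KO recovery lay below WT recovery in all 9 pairs of libraries (log2 difference -1.28, SE 0.451), which was not called (edgeR adjusted p = 0.129) but was called by DESeq2 (adjusted p = 0.0398), by limma-voom (0.0257) and with a term for the posterior mark (0.0496). The interaction of genotype and recovery was -1.67 on the log2 scale (SE 0.632, adjusted p = 0.183 by edgeR), and a genotype difference in the response was thus not called.

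The main edgeR fit called none of the 4 genes of mucus proteins stored with MUC2 in recovery in either genotype, while other tools and other edgeR settings called some, as given for each. *Fcgbp* (ENSMUSG00000047730, chromosome 7, 28071236 to 28120862, plus strand), a large protein bound to the mucin network, had 1800.3, 1013 and 1811 CPM in WT controls and 1149.7, 1278 and 1384 CPM in *Cldn2*KO controls. Recovery libraries had 716, 781 and 1014 CPM in WT and 851, 1237 and 1524 CPM in *Cldn2*KO mice, and AOM/DSS libraries 1749, 1534 and 541 CPM in WT and 1597, 1177 and 1708 CPM in *Cldn2*KO mice. The ranges of WT recovery and WT controls met, the highest recovery library being level with the lowest control. *Fcgbp* was the one member with a lower mean in WT recovery than in WT controls (log2 difference -0.88, SE 0.354, adjusted p = 0.0843 by edgeR), and without WT control replicate 2 that difference was called (-1.13, edgeR adjusted p = 0.0319), as it was by limma-voom (-0.98, adjusted p = 0.000859).

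*Clca1* (ENSMUSG00000028255, chromosome 3, 145003817 to 145032776, minus strand), a secreted metalloprotease of the mucus, was the member in which the control genotypes differed most among the abundant genes. WT controls had 1196, 584 and 1326 CPM and *Cldn2*KO controls 2367, 2451 and 2077 CPM. In recovery the values were 1307, 2352 and 2319.9 CPM in WT and 1715, 986 and 1437 CPM in *Cldn2*KO mice, and in AOM/DSS 2633, 2950.3 and 540.3 CPM in WT and 3332, 2451 and 2212 CPM in *Cldn2*KO mice. The control genotypes did not overlap, yet the difference was not called (log2 difference 1.15, SE 0.469, adjusted p = 0.295 by edgeR). From control to recovery the mean was higher in WT (0.94, SE 0.467, adjusted p = 0.157 by edgeR) and lower in *Cldn2*KO mice (-0.74, SE 0.465, adjusted p = 0.297 by edgeR), neither called. The *Cldn2*KO difference was called by 2 of 16 alternatives, limma-voom (adjusted p = 0.0314) and edgeR with only the groups compared (adjusted p = 0.0379), and its sign turned with a term for the posterior mark (0.37, edgeR adjusted p = 0.899). The interaction was -1.68 (SE 0.659, adjusted p = 0.195 by edgeR), and limma-voom called it (adjusted p = 0.0268).

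*Zg16* (ENSMUSG00000049350, chromosome 7, 127050156 to 127087328, minus strand) encodes a lectin-like protein that binds the cell wall of Gram-positive bacteria. Its gene model overlaps 2 noncoding genes on the other strand, and as strand-specific counting was not stated its values are uncertain to that extent. Controls had 2529.9, 1150.0 and 2655 CPM in WT and 1767, 2241 and 2001 CPM in *Cldn2*KO mice. Recovery libraries had 2792, 3331 and 5439 CPM in WT and 3731, 4214 and 3211 CPM in *Cldn2*KO mice, and AOM/DSS libraries 2227, 2142 and 344 CPM in WT and 2091, 2137 and 1344 CPM in *Cldn2*KO mice. In both genotypes recovery lay wholly above control, with differences of 0.87 (SE 0.496, adjusted p = 0.224 by edgeR) and 0.89 (SE 0.497, adjusted p = 0.231 by edgeR) on the log2 scale that were not called. In *Cldn2*KO mice 2 of 16 alternatives called it, limma-voom (adjusted p = 0.0398) and edgeR with only the groups compared (adjusted p = 0.00796), and in WT mice none of 16 did. Over these alternatives the difference ran from 0.55 to 1.74 in WT and from 0.79 to 2.07 in *Cldn2*KO mice.

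*Tff3* (ENSMUSG00000024029, chromosome 17, 31125306 to 31129646, minus strand), a trefoil peptide secreted with the mucin and known for its part in epithelial restitution, varied little, by 3.82-fold between its lowest and its highest library. It had 1074, 646 and 1048 CPM in WT controls and 995, 1227 and 1304 CPM in *Cldn2*KO controls. Recovery gave 1084, 1931 and 2039 CPM in WT and 1415, 1389 and 1096 CPM in *Cldn2*KO mice, and AOM/DSS 1459.7, 1345 and 534 CPM in WT and 1301, 1058 and 789.9 CPM in *Cldn2*KO mice. WT recovery lay just above WT controls (log2 difference 0.87, SE 0.339, adjusted p = 0.076 by edgeR), and the *Cldn2*KO groups overlapped throughout. The WT difference was called under 3 of 16 alternatives, by DESeq2 (adjusted p = 0.0421), by limma-voom (0.0193) and by edgeR without WT recovery replicate 1 (0.0405).

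*Retnlb* (ENSMUSG00000022650, chromosome 16, 48816856 to 48818891, plus strand) encodes RELMβ, a resistin-like protein secreted by goblet cells in response to bacteria, parasites and injury. It had the widest range of the 9 genes, from 6 reads in the lowest library to 26105 in the highest. Controls had 7.79, 215 and 18.1 CPM in WT and 0.739, 1.39 and 0.323 CPM in *Cldn2*KO mice. Recovery libraries had 420.1, 415 and 1544 CPM in WT and 81.1, 73.7 and 458 CPM in *Cldn2*KO mice, and AOM/DSS libraries 6.92, 15.8 and 30.2 CPM in WT and 14.2, 2.76 and 14.8 CPM in *Cldn2*KO mice. All 6 recovery libraries and WT control replicate 2 were above every other library, the same 7 libraries that lacked the posterior mark. *Retnlb* rose in *Cldn2*KO recovery by 7.96 on the log2 scale (SE 1.5, adjusted p = 0.00261 by edgeR), or 249.7-fold. That call was lost with a term for the posterior mark (3.91, adjusted p = 0.344). In WT mice the difference was 3.31 (SE 1.15, adjusted p = 0.0523 by edgeR) and was not called, but without WT control replicate 2 it was 5.93 and was called (edgeR adjusted p = 0.00284).

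**Figure D2:**
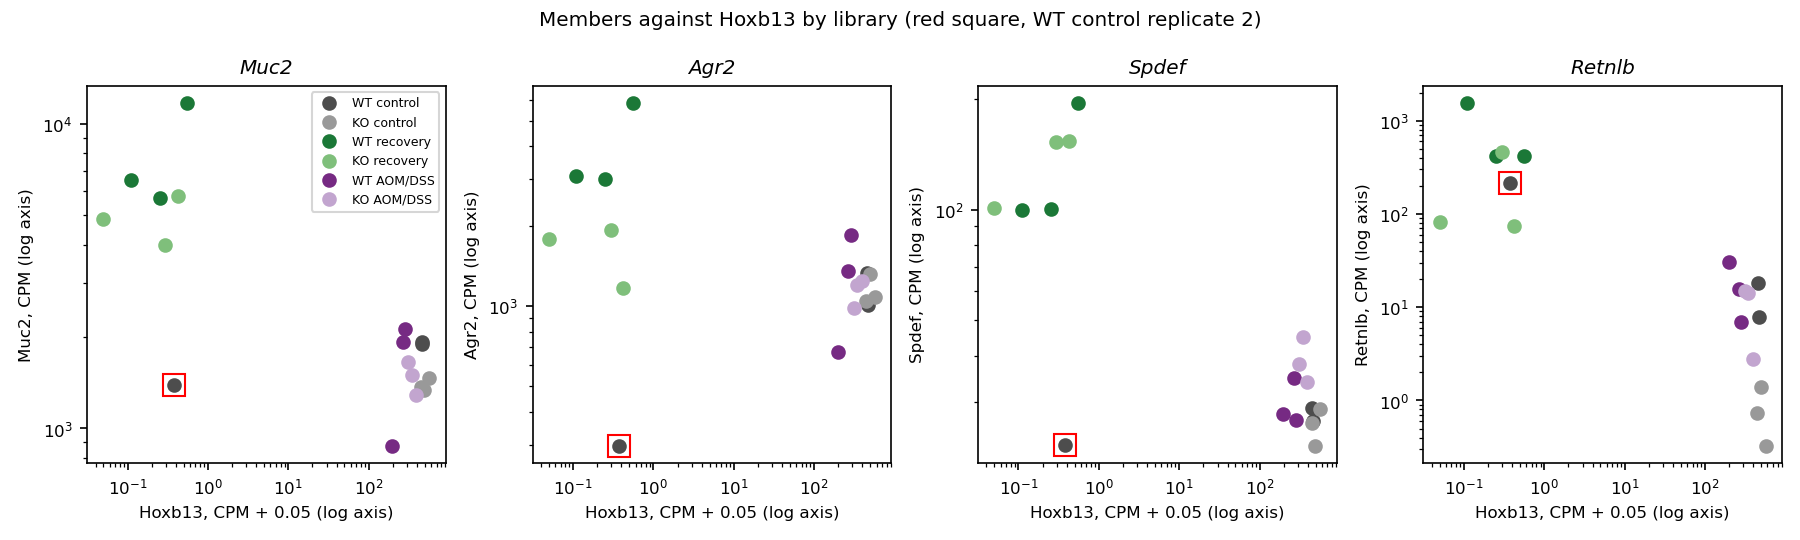
*Muc2*, *Agr2*, *Spdef* and *Retnlb* (CPM, log axis) against *Hoxb13* (CPM + 0.05, log axis) in the 18 libraries, coloured by group, with WT control replicate 2 in a red square. That library sits among the recovery libraries on the *Hoxb13* axis at 0.327 CPM, with *Spdef* at 22.9 CPM and *Muc2* at 1384 CPM as in other controls, but with *Retnlb* at 215 CPM.

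Counted over the 9 genes, most calls lay in recovery against control. In WT mice edgeR called 3 of the 9 genes higher (*Muc2*, *Agr2* and *Spdef*) and none lower, against 22.2% of all tested genes called in either direction and 10% called higher. In *Cldn2*KO mice it called 4 higher (*Muc2*, *Spdef*, *Atoh1* and *Retnlb*) and none lower, against 19.4% called in either direction and 9.43% called higher. The median log2 difference of the 9 genes was 0.94 in WT and 0.89 in *Cldn2*KO mice, beside medians of -0.04 and 0.00367 over all tested genes. Recovery and control libraries did not overlap for 7 of the 9 genes in WT and 6 of 9 in *Cldn2*KO mice, where 37.7% and 40.3% of all tested genes did not overlap. At an unadjusted p under 0.05 the counts were 7 and 4 of the 9, and 36.3% and 32.5% of all tested genes. DESeq2 called 5 of the 9 higher in WT and 3 in *Cldn2*KO mice and none lower, with 27.1% and 23.9% of all tested genes called in either direction, and gave no adjusted p for *Retnlb*. With limma-voom and sample weights 6 were called higher and *Fcgbp* lower in WT, and 5 higher and *Clca1* lower in *Cldn2*KO mice, where 48% and 34% of all tested genes were called.

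These calls were set beside the posterior mark. All 3 genes called in WT recovery had their lowest WT control level in WT control replicate 2, on the side away from recovery. For 39.98% of the 3767 genes called in that comparison, that control lay beyond the mean of the other WT controls on the side away from recovery. For 23.2% of them that control lay on the recovery side, being nearer to the recovery libraries, within their range (6.8%) or past it. With a term for *Hoxb13* above 10 CPM, the WT count stayed at 3 and the *Cldn2*KO count went from 4 to 1 (*Spdef*), where 8.72% and 0.785% of all tested genes were called. Of the 3 genes no longer called in *Cldn2*KO mice, *Muc2* (2.27 on the log2 scale, against 1.82 without the term) and *Atoh1* (1.37, against 0.98) had differences that were not smaller, and that of *Retnlb* was smaller (3.91, against 7.96). Markers of other cells also moved with recovery. The summed level of 12 smooth muscle genes was 1089 to 2774 CPM in WT recovery against 4919 to 7243 CPM in WT controls, and 1239 to 1928 CPM against 9749 to 12976 CPM in *Cldn2*KO mice. The part of tissue composition in the goblet cell differences was not tested beyond these values and an alternative fit with a term for the level of epithelial genes.

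**Figure D3:**
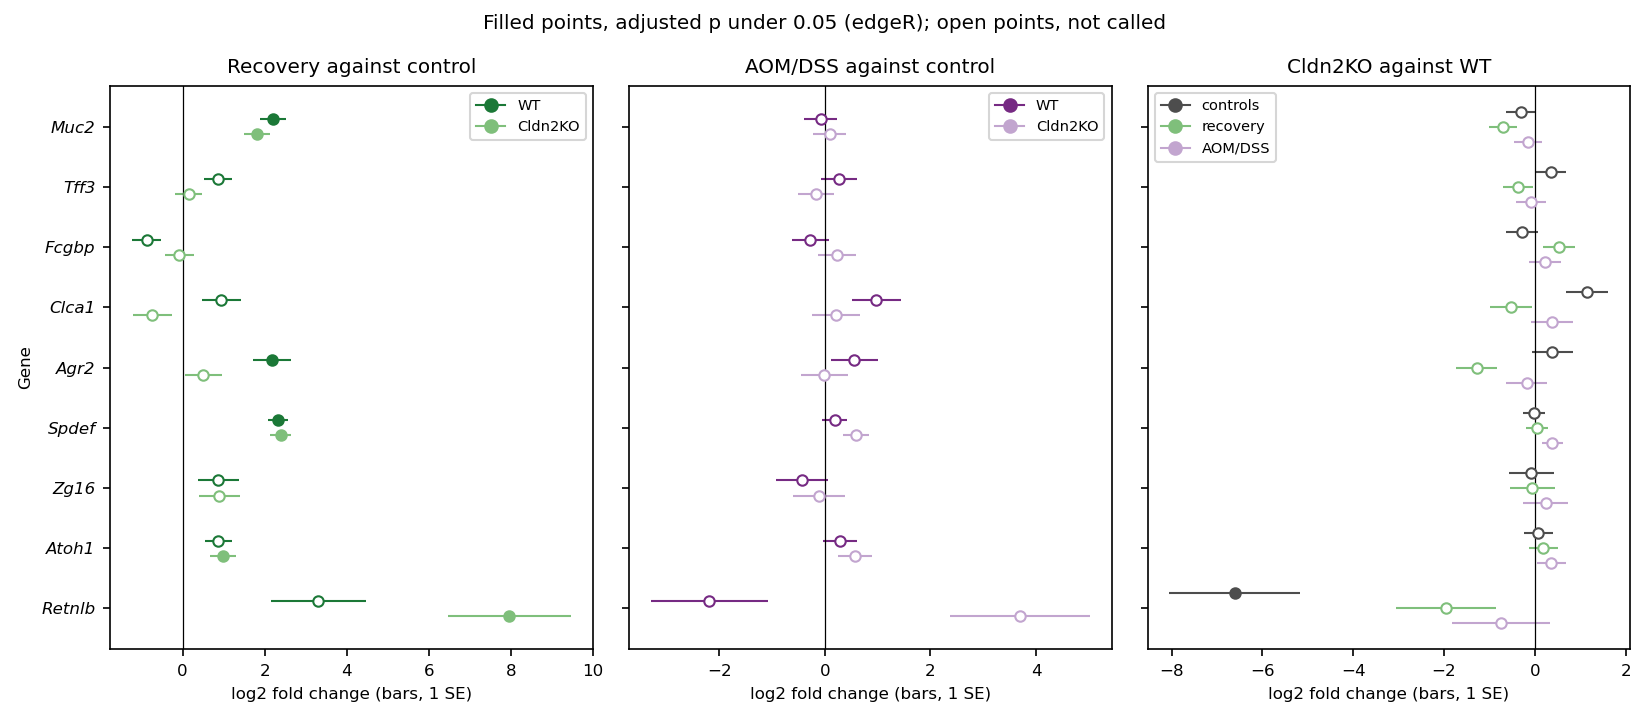
Log2 fold changes of the 9 genes with bars of 1 SE from the edgeR fit, for recovery against control, AOM/DSS against control, and *Cldn2*KO against WT. Filled points were called at an adjusted p under 0.05: 3 genes in WT recovery, 4 in *Cldn2*KO recovery, *Retnlb* between control genotypes, and none with AOM/DSS.

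In AOM/DSS colon the 9 genes held no calls. With edgeR no member was called in WT mice, where 10.4% of all tested genes were (3.81% higher and 6.58% lower), and none in *Cldn2*KO mice, where 0.195% were. At an unadjusted p under 0.05 the counts were 0 in WT (29.9% of all tested genes) and 2 in *Cldn2*KO mice (*Spdef* and *Retnlb*, 15.2% of all tested genes). These were also the 2 genes whose libraries did not overlap in *Cldn2*KO mice, where 29.1% of all tested genes did not, and in WT mice there was none, against 32.2%. DESeq2 called none in either, and limma-voom called 1 in each (*Clca1* in WT and *Spdef* in *Cldn2*KO mice), where DESeq2 called 17.9% and 3.55% of all tested genes and limma-voom 15.2% and 18.3%. In WT AOM/DSS the spread was set by replicate 3, which had the lowest level of its group for 7 of the 9 genes and of 41.5% of all tested genes. This library held 344 CPM of *Zg16* against 2227 and 2142 CPM in the other WT AOM/DSS libraries, and 540.3 CPM of *Clca1* against 2633 and 2950.3 CPM. Its summed smooth muscle, absorptive and enteroendocrine markers were also the lowest of the group, at 735, 1838 and 94.6 CPM. Without it, the difference of *Clca1* from WT controls was 1.43 (edgeR adjusted p = 0.0522) in place of 0.98 (adjusted p = 0.172). *Retnlb* was higher in all *Cldn2*KO AOM/DSS libraries than in any *Cldn2*KO control (log2 difference 3.69, SE 1.33, adjusted p = 0.216 by edgeR), and in WT its direction depended on WT control replicate 2.

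Between genotypes 1 of the 9 genes was called, in controls. *Retnlb* was lower in *Cldn2*KO mice, at 0.816 ± 0.536 CPM against 80.2 ± 117 CPM in WT (SD, n = 3, a log2 difference of -6.61, SE 1.43, adjusted p = 0.0364 by edgeR), where 1.17% of all tested genes were called and 1.05% were called lower. *Retnlb* and *Clca1* were the 2 members that did not overlap between control genotypes, against 22.3% of all tested genes, and also the 2 with an unadjusted p under 0.05, against 13.1%. The WT mean rested on replicate 2, and without that library the difference was -4.00 and was not called (edgeR adjusted p = 0.135), although all 3 WT controls remained above all 3 *Cldn2*KO controls. Leaving out any 1 *Cldn2*KO control also ended the call (edgeR adjusted p between 0.103 and 0.211). In recovery edgeR called no member between genotypes, where 0.974% of all tested genes were called. The unadjusted p was under 0.05 for 2 members (*Muc2* and *Agr2*) and 19.9% of all tested genes, and *Agr2* alone did not overlap, against 23.9% of all tested genes. DESeq2 called *Agr2* and 7.98% of all tested genes, and limma-voom called *Agr2*, *Retnlb* and 11.2% of all tested genes. In AOM/DSS edgeR, DESeq2 and limma-voom called none, and 0.0059% of all tested genes were called by edgeR. No member there had an unadjusted p under 0.05 (5.6% of all tested genes had) or groups that did not overlap (11.3%).

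Tests of whether the genotypes responded differently gave no calls either. For recovery, edgeR called none of the 9 interactions, with 0.13% of all tested genes called, and 3 had an unadjusted p under 0.05, against 18.5% of all tested genes. These were *Clca1* and *Agr2*, described above, and *Retnlb* (4.66, SE 1.69, adjusted p = 0.172). For AOM/DSS it called none, with 0.0118% of all tested genes called, and *Retnlb* alone had an unadjusted p under 0.05, against 8.44% of all tested genes (5.87, SE 1.73, adjusted p = 0.437 by edgeR). The value of *Retnlb* rested on WT control replicate 2, without which it was 2.02 for recovery and 3.26 for AOM/DSS (edgeR adjusted p = 0.513 and 0.718). DESeq2 called none in either, and limma-voom called *Clca1* for recovery and none for AOM/DSS. DESeq2 and limma-voom called 5.18% and 10.4% of all tested genes for recovery, and 0.514% and 1.77% for AOM/DSS.

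Levels can be set beside each other only per length of transcript, as CPM per kb of exon. On that scale the order of the genes differed between groups. In WT controls the mean was highest for *Tff3* (1871 CPM per kb) and *Zg16* (1679.9), then *Agr2* (680.5), *Clca1* (274), *Muc2* (243), *Fcgbp* (147) and *Retnlb* (115), and lowest for *Atoh1* (13.9) and *Spdef* (12). In WT recovery *Tff3* (3417 CPM per kb), *Agr2* (3073) and *Zg16* (3066) were close together, *Retnlb* (1141) and *Muc2* (1119) stood above *Clca1* (528) and *Fcgbp* (79.8), and the factors remained lowest. In *Cldn2*KO recovery *Zg16* (2958 CPM per kb) was above *Tff3* (2636), and *Retnlb* ran from 1.17 CPM per kb in *Cldn2*KO controls to 294. The range was widest for *Retnlb*, whose highest library held 4782 times the CPM of its lowest, and narrowest for *Fcgbp* (3.35-fold) and *Tff3* (3.82-fold). By group mean, *Muc2*, *Tff3*, *Agr2*, *Zg16* and *Retnlb* ranked WT recovery first and *Cldn2*KO recovery next, *Spdef* and *Atoh1* the other way round, and only for *Agr2* did those 2 groups not overlap. Below recovery, most neighbouring groups overlapped, and *Muc2*, *Spdef* and *Zg16* showed a gap between the recovery groups and the next group down. *Fcgbp* was highest in WT controls and *Clca1* in *Cldn2*KO AOM/DSS, each overlapping its neighbour.

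Within groups, the members fell into a set that varied together and 2 genes that did not. As a description, log2 CPM was taken as its deviation from the group mean over the 18 libraries, where depth and tissue composition are common to all genes of a library. *Tff3* and *Zg16* had the highest correlation (Pearson r = 0.918), followed by *Clca1* with *Zg16* (0.901) and with *Tff3* (0.883), and *Fcgbp* with *Zg16* (0.82). WT AOM/DSS replicate 3 lay far below its group for *Zg16* (344 against 2227 and 2142 CPM), *Clca1* (540.3 against 2633 and 2950.3 CPM) and *Tff3* (534 against 1459.7 and 1345 CPM). How far these correlations rest on that library was not tested. *Muc2* went with *Atoh1* (0.793) and *Tff3* (0.767). *Spdef*, in spite of its size of change in recovery, was loosely related to the others, from 0.1 with *Zg16* to 0.552 with *Muc2*. *Retnlb* had negative values with all 8 other members, from -0.577 with *Agr2* to -0.121 with *Spdef*, and without WT control replicate 2 those 2 values were -0.191 and 0.0234.

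**Figure D4:**
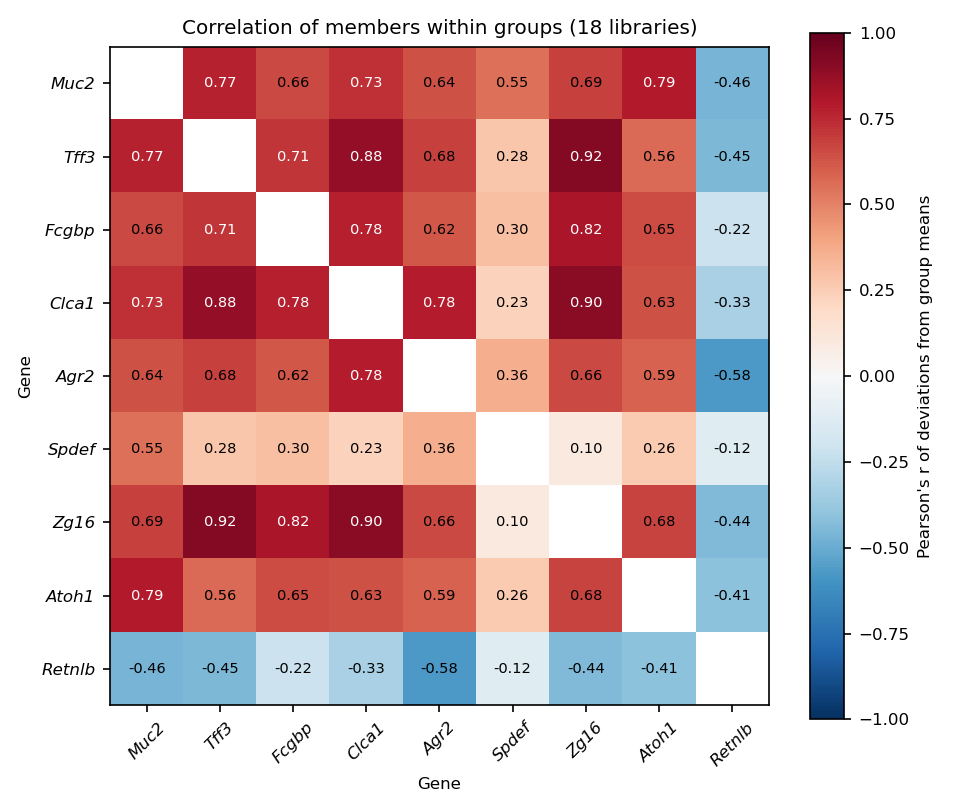
Pearson correlation of log2 CPM between the 9 genes after group means were taken off, over 18 libraries. *Tff3*, *Zg16* and *Clca1* form the tightest set (0.883 to 0.918), *Spdef* is at most 0.552 with any member, and *Retnlb* is negative with all. How far these values rest on WT AOM/DSS replicate 3, which was low for most members, was not tested.

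Across 13240 other genes with a mean of at least 1 CPM, the closest companions on the same measure were named for each member. *Muc2* was most like *Bace2* (r = 0.946), *Hpd* (0.937) and *Cryzl2* (0.92), and *Agr2* like *Sycn* (0.958), *Eno3* (0.958) and *Tspan13* (0.957). *Tff3* was closest to *Lgals4* (0.918) and *Bcas1* (0.9), *Clca1* to *Akap7* (0.935) and *Bcas1* (0.926), and *Zg16* to *Serhl* (0.946) and *Plbd1* (0.927). *Bcas1* and *Tspan13* belong to the list of other goblet cell genes, and galectin-4, the product of *Lgals4*, is an epithelial lectin of the gut. *Spdef* was closest to *Gtf3c5* (0.925) and *Tmc6* (0.906), *Atoh1* to *Pccb* (0.916), *Fcgbp* to *Mfsd6* (0.884) and *Retnlb* to *Csnk1g3* (0.899).

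The wider goblet cell program was followed in lists of genes by role. The counts of each list stand beside the calls among all tested genes, of which 10% were called higher and 12.2% lower in WT recovery, and 9.43% higher and 10% lower in *Cldn2*KO recovery. Among 20 other goblet cell genes, 9 were called higher and 1 lower in WT recovery, and 4 higher and 1 lower in *Cldn2*KO recovery, with medians of 0.90 and 0.37. The 5 calls of 20 in *Cldn2*KO mice were thus near the 19.4% of all tested genes called in either direction. *Klk1*, a kallikrein, rose from 576 ± 271 to 3402 ± 1839 CPM in WT (SD, n = 3, log2 fold change 2.56, SE 0.541, adjusted p = 0.00492 by edgeR) and was not called in *Cldn2*KO mice (adjusted p = 0.833), whose controls averaged 1644 CPM. *Ccl9*, a chemokine, rose in both (2.52 and 1.98, edgeR adjusted p = 0.00104 and 0.00293), as did *Slc12a8*, a member of the cation-chloride cotransporter family (2.10 in each, adjusted p = 0.000708 and 0.000548). *Wfdc2*, a secreted antiprotease, fell in both (-2.77 and -4.01, edgeR adjusted p = 0.0218 and 0.00445), from 335 ± 51.1 to 20.9 ± 5.38 CPM in *Cldn2*KO mice. It stood at 9.03 CPM in WT control replicate 2, past the recovery libraries, so that its level went with the posterior mark.

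Of 31 tested genes of mucin O-glycosylation and sulfation, 10 were called higher and 5 lower in WT recovery (median 0.37), and 15 higher and 2 lower in *Cldn2*KO recovery (median 0.62). *C1galt1*, the core 1 synthase, and *C1galt1c1*, its chaperone, rose in both genotypes (*C1galt1* by 1.14 and 1.12, *C1galt1c1* by 1.68 and 1.08, all with an edgeR adjusted p of at most 0.00198). *B3gnt6*, the core 3 synthase of the colon, rose by 3.62 in WT and 5.54 in *Cldn2*KO mice (edgeR adjusted p = 0.00487 and 0.00091), and *Gcnt4*, a branching enzyme, by 2.32 and 4.57 (0.036 and 0.00213). *B3gnt6* was at 0.511, 12.5 and 1.21 CPM in WT controls and at 41.6 to 75.3 CPM in WT recovery, so the control that lacked the posterior mark lay between. *B4galnt3* fell in both (-2.28 and -1.35, edgeR adjusted p = 0.00249 and 0.0294). WT control replicate 2 stood on the recovery side for *Gcnt4* (2.52, 10.6 and 1.97 CPM in WT controls, 20.7 to 31.5 CPM in WT recovery) and for *B4galnt3* as well (63.6, 18.6 and 53.4 CPM, and 5.88 to 11.2 CPM). This was so for 6 of the 15 genes of the list called in WT recovery (40%), against 23.2% of all called genes.

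The folding and export machinery differed between genotypes in its counts. In WT recovery 12 of 34 genes were called higher and 1 lower (median 0.42), and in *Cldn2*KO recovery 6 were called higher and 4 lower (median 0.03). *Creb3l4*, a transcription factor of secretory cells (1.62 and 1.01, edgeR adjusted p = 0.00377 and 0.0382), and *Dnajc10*, a reductase of the endoplasmic reticulum (1.41 and 0.98, 0.00037 and 0.00165), rose in both. *Pdia6*, a disulfide isomerase, rose in WT (1.04, edgeR adjusted p = 0.00556) and was not called in *Cldn2*KO mice (-0.26, adjusted p = 0.456), while the chaperone *Hsp90b1* fell in *Cldn2*KO mice (-0.58, adjusted p = 0.0354) and was not called in WT (0.48, adjusted p = 0.0711). Both genotypes have their own controls, and these differences between them were not read as a difference in response.

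Secretory fate and Notch genes held 1 call higher and 6 lower of 20 in each genotype, where 12.2% (WT) and 10% (*Cldn2*KO) of all tested genes were called lower. *Foxa3*, a forkhead factor of goblet cells, rose in WT recovery (1.03, SE 0.301, adjusted p = 0.024 by edgeR). *Klf4*, a factor of goblet cell differentiation, fell in both (-1.39 and -0.84, edgeR adjusted p = 0.000996 and 0.0116), as did the Notch effector *Hes1* (-0.64 and -0.60, adjusted p = 0.0141 and 0.0204). Of the 7 tested transmembrane mucins, none was called higher and 3 lower in WT, and 2 higher and 2 lower in *Cldn2*KO mice. The median of the list was -0.91 in WT and 1.32 in *Cldn2*KO recovery. *Muc3* (-1.25 and -1.39, edgeR adjusted p = 0.0365 and 0.0255) and *Muc1* (-3.49 and -3.26, 0.0273 and 0.0394) fell in both. *Muc3a* and *Muc16* went the other way in *Cldn2*KO mice. *Muc3a* was at 49.2 to 72.1 CPM in *Cldn2*KO controls and 165 to 327 CPM in *Cldn2*KO recovery, and *Muc16* at 0.161 to 2.16 and 3.76 to 8.73 CPM. *Muc1* was at 25.2, 0.262 and 19.5 CPM in WT controls and at 0.651 to 2.22 CPM in WT recovery, so that WT control replicate 2 lay past the recovery libraries, as for *Wfdc2*. *Muc3* was at 3519 to 3961 CPM in WT controls, WT control replicate 2 being the highest, and at 1365 to 1731 CPM in WT recovery.

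**Figure D5:**
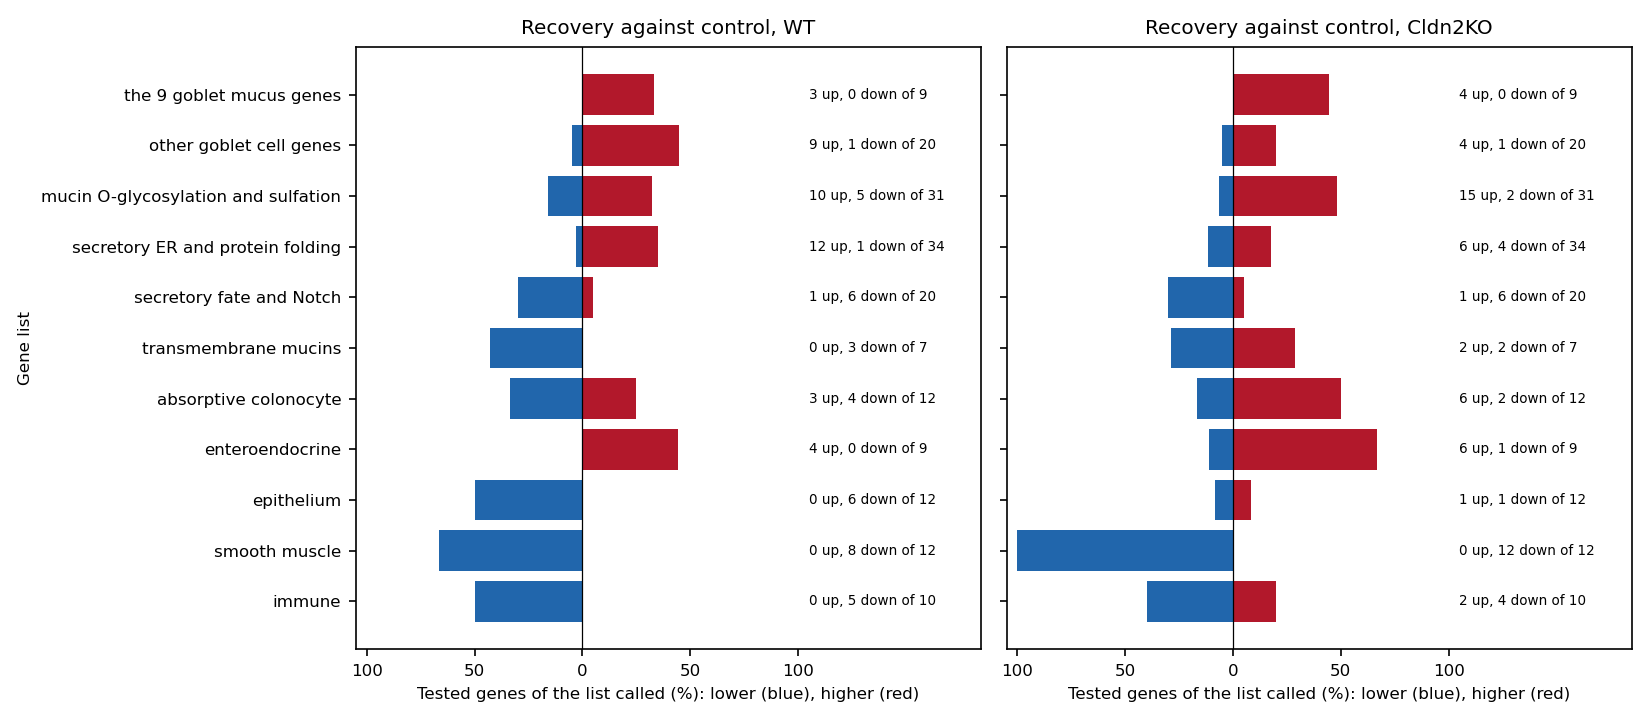
Share of the tested genes of each list called higher (red, right) or lower (blue, left) in recovery against control, for WT and *Cldn2*KO mice, with the counts at the right. Goblet cell, O-glycosylation and enteroendocrine genes were called higher more often than lower, and smooth muscle genes were lower (8 of 12 in WT and 12 of 12 in *Cldn2*KO mice).

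Markers of the other cells of the colon give the setting of these values. Enteroendocrine genes, the products of another secretory lineage, were called higher for 4 of 9 in WT recovery and 6 of 9 in *Cldn2*KO recovery, with 0 and 1 lower. Absorptive colonocyte genes were called in both directions (3 higher and 4 lower of 12 in WT, 6 and 2 in *Cldn2*KO mice), and they summed to 63150.0 CPM in WT control replicate 2, far over the 8581 and 7729 CPM of replicates 1 and 3. General epithelial genes were called lower for 6 of 12 in WT recovery and for 1 of 12, with 1 higher, in *Cldn2*KO recovery. Immune genes were called lower for 5 of 10 in WT and for 4 of 10, with 2 higher, in *Cldn2*KO mice. Apart from an alternative fit with a term for the level of the epithelial genes, the part of these cells in the levels of the 9 genes was not tested.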

How the data were processed

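RNA had been isolated from colon with the Quick-RNA kit and sequenced on an Illumina NovaSeq instrument. The authors deposited raw counts of reads per gene for 2 lanes of each of 18 libraries, made with featureCounts of the Subread package on GRCm38. The study names TopHat2 as the aligner and the submitters' processing notes name HISAT2; versions and strand settings are not given in the sources used here. The 36 columns were summed over lanes to 18 libraries. Symbols and coordinates came from GENCODE M21 (47310 of 47729 gene identifiers matched, and the 419 others held at most 0.0292% of reads), and promoters from RefSeq. A chi-square test of counts over genes, divided by its degrees of freedom, gave 1.08 to 1.18 for the lanes of a library and at least 11.9 for the 18 pairs of replicates, so each library counted as 1 sample. Depth was 17643058 to 27390344 reads.

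Counts were tested with edgeR 4.0.16 in R 4.3.3: filterByExpr by group, TMM normalization, robust glmQLFit and glmQLFTest with a mean for each of 6 groups, and Benjamini-Hochberg adjustment over 16937 genes in each of 9 contrasts. A call is an adjusted p under 0.05. CPM are counts scaled to the TMM-adjusted library size, and log2 CPM used a prior count of 0.5. A difference smaller than its SE is not read as a direction (38 of 81 member values). The study used DESeq2; DESeq2 1.42.0 and limma 3.58.1 (voom with sample weights) were alternatives, beside other normalizations and filters, covariates, a replicate block and leaving out each library. The procedure was tested on simulated data. All 9 genes were named, and from each list up to 4 called genes with the largest changes or with a role needed to describe it; companions are the genes with the highest correlation. The genes, lists and tests were chosen with earlier results of these data known.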

Additional observations from a re-analysis of the deposited data

How the results depend on the processing

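The 9 genes gave 9 counts of calls and 43 single differences larger than their SE, each recomputed under the alternatives; of the recomputed single differences 686 kept direction and side of the threshold, 25 passed it, 21 no longer did and 6 changed sign. For the controls, *Cldn2*KO against WT, the count of 1 was 0 with no filter, with DESeq2, with only the groups compared, with the posterior region term and with the epithelium term, 3 with limma-voom (*Clca1* higher, *Muc2* and *Retnlb* lower, 15.1% of all tested genes called), and 0 to 1 when a library was left out (0 without WT control replicate 2 or any *Cldn2*KO control). In recovery, *Cldn2*KO against WT, the count of 0 was 1 with DESeq2 (7.98% of all tested genes called), 2 with limma-voom (11.2%) and 1 with the posterior region term (3.18%). For recovery against control, WT, the count of 3, all higher, was 7 at an adjusted p under 0.1 (6 higher and *Fcgbp* lower, 31.4% of all tested genes called), 5 with DESeq2 (all higher), 7 with limma-voom (6 higher and *Fcgbp* lower) and 3 to 5 when a library was left out, with 5 without WT control replicate 2. In *Cldn2*KO mice the count of 4 was 1 with the posterior region term (0.785% of all tested genes called), under which *Muc2* was at 2.27 (edgeR adjusted p = 0.0869), against 1.82. The count was 6 with limma-voom (34% of all tested genes called) and 6 with only the groups compared, *Zg16* higher and *Clca1* lower being added to the 4 in each. It was 3 when any library was left out. The share of all tested genes called with only the groups compared is not given here. *Atoh1* was the gene lost when a library was left out, and it was also lost with a term for high *Xist* (adjusted p = 0.234). With AOM/DSS the count of 0 in WT was 1 with limma-voom (15.2% of all tested genes called). In *Cldn2*KO mice it was 1 with limma-voom (18.3%) and 1 with only the groups compared, whose share is again not given. The interaction with recovery went from 0 to 1 with limma-voom. Sign changed for *Retnlb* in AOM/DSS against control, WT, from -2.18 to 0.023 with limma-voom, 0.45 with the posterior region term, 0.43 with the epithelium term and, over the libraries left out, between -2.80 and 0.44, the last without WT control replicate 2; for *Clca1* in recovery against control, *Cldn2*KO, from -0.74 to 0.37 with the posterior region term; and for *Spdef* in the AOM/DSS interaction from 0.40 to -0.10 with the epithelium term. The cause of these changes was not tested. The posterior region term varies within 1 group only, WT controls, and so rests on 1 library. DESeq2 gave *Retnlb* no adjusted p.

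Controls carry replicate numbers in both genotypes, and the main fit did not pair the libraries by them. Same-numbered libraries had correlations of 0.133, 0.000418 and 0.0761 of their deviations from the group means, and differently numbered ones of -0.154 to 0.0784. With 3 libraries a group these values cannot decide whether the libraries are paired. With a replicate block 1 gene was called between control genotypes, *Retnlb* (-5.68, edgeR adjusted p = 0.0413), as without it.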

Other observations

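Genes related to the 9 members were followed as well. *Agr3*, the neighbour and relative of *Agr2*, rose in WT recovery from 0.231 ± 0.0642 to 2.46 ± 1.37 CPM (SD, n = 3). Its difference was 3.40 on the log2 scale (SE 0.56, adjusted p = 0.00141 by edgeR), and it was not called in *Cldn2*KO recovery (0.88, adjusted p = 0.226). Of the other resistin-like genes, *Retnla* fell in *Cldn2*KO recovery (-4.62, SE 1.17, edgeR adjusted p = 0.0127), where *Retnlb* rose, and averaged at most 3.42 CPM in any of the WT or *Cldn2*KO control and recovery groups. *Muc6*, a gel-forming mucin of the stomach and duodenum, rose in WT AOM/DSS (4.98 on the log2 scale, SE 1.39, adjusted p = 0.0374 by edgeR), as did *Lyz1* (6.01, adjusted p = 0.025) and *Mmp7* (7.82, adjusted p = 0.0295), products of Paneth cells in the small intestine. All of these were highest in WT AOM/DSS replicate 3, which had the lowest level of its group for most of the 9 members: *Muc6* was at 0.436, 1.97 and 18.1 CPM, *Lyz1* at 21.1, 148 and 1088 CPM and *Mmp7* at 0.92, 27.6 and 372 CPM, and how far the calls rest on that library was not tested. In the same comparison 8 of 12 absorptive colonocyte genes were called lower, where 6.58% of all tested genes were, with *Krt20*, a keratin of mature surface cells, at -2.01 (edgeR adjusted p = 0.00455). The WT controls were uneven in this list: it summed to 8581, 63150.0 and 7729 CPM in them and to 1838 to 4263 CPM in WT AOM/DSS, and *Krt20* was at 1800.0, 3635 and 1863 CPM in WT controls. The 20 other goblet cell genes held 2 calls in WT AOM/DSS, or a share near the 10.4% of all tested genes called, *Slc12a8* (1.05, adjusted p = 0.0364) and *Sytl2* (0.93, adjusted p = 0.0423), both higher. In the 9 tested genes of the type 2 and IL-22 cytokine axis, *Il4ra* (1.98, edgeR adjusted p = 0.00261) and *Stat6* (0.63, adjusted p = 0.00222) rose and *Il13ra2* fell (-4.99, adjusted p = 0.00445) in *Cldn2*KO recovery, and *Il13ra2* (-3.00, adjusted p = 0.0309) and *Il22ra1* (-1.35, adjusted p = 0.0247) fell in WT recovery. The ligands *Il13*, *Il22* and *Il25* had too few reads to be tested.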
